A study of Mus musculus with 12 samples.

Results

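The histone genes of the developing mouse cortex are described here together with Slbp, the protein that binds the end of their messages. The set holds 75 of the 55487 gene identifiers measured. It was taken by name from protein-coding genes of GENCODE vM21 (mouse build GRCm38): every symbol that starts with Hist1h, Hist2h, Hist3h or Hist4h (67 genes), the variant histone genes H2afx, H2afz, H2afv, H2afy, H3f3a, H3f3b and H1f0 (7 genes), and Slbp. The rule itself uses names alone. The 67 genes, called replication-dependent below, comprise 6 H1, 18 H2A, 18 H2B, 12 H3 and 13 H4 genes, and 54 of them lie in the Hist1 cluster on chromosome 13, 10 on chromosome 3, 2 on chromosome 11 and 1 on chromosome 6. A further 3 histone symbols were left out because they are not annotated as protein-coding.

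RNA came from the ventricular zone of the dorsal cortex, the layer of dividing progenitors beside the ventricle, cut out by laser microdissection. The mice carried a ROSA26 knock-in in which a loxP-flanked stop precedes p18-P2A-mKO2, so that Cre switches on the cyclin-dependent kinase inhibitor p18, which Cdkn2c encodes, and with it the fluorescent protein mKO2. There were 4 groups of 3 libraries: p18mKO2+ at E16.5 (genotype p18mKO2 over-expression), p18mKO2- at E16.5 (genotype normal), p18mKO2+ at E13.5 and p18mKO2- at E13.5. Tamoxifen was injected intraperitoneally in every group, including the normal one, and the labels name neither the Cre driver nor the day of injection. The question behind the study was how cyclin-dependent kinase inhibitors bear on the switch of progenitors from making neurons to making astrocytes. Whether replicates came from separate embryos or litters is not stated, so a p-value here reflects library-to-library spread, some of which may be technical.

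Replication-dependent histone genes supply the H1, H2A, H2B, H3 and H4 proteins that package newly copied DNA, and their messages accumulate in S phase. Most of these messages carry no poly(A) tail: they end just after a short stem-loop that Slbp binds, and Slbp is needed for their 3′ end processing, translation and stability. Variant histone genes such as H3f3a, H3f3b and H2afz are expressed outside S phase as well, and their messages are polyadenylated. The libraries were made from polyadenylated RNA, so a count of a replication-dependent gene is the count of whatever part of its RNA passed that selection, and the tailed share of each message was not measured.

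The stem-loop was read from the vM21 transcripts, as GG, 2 free bases, CTT, a free base, T, a free base, AG, 2 bases and CC (16 bases, transcript strand). Its last 6 bases had to be the reverse complement of its first 6, and in members it had to follow the stop codon. It was found in 46 of the 54 replication-dependent genes with an annotated 3′ untranslated region and in the variant gene H2afx. Searched at any position, it was in 65 of 58797 protein-coding transcripts overall (0.111%). The same loop, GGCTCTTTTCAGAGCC, was shared by 26 of the 47 members that had one. The 6 genes below are those with called differences or, for Hist1h4c, with the loop most frequent among genes with a GGCCCT stem (7 of 47 members). Capitals mark the stem-loop and lower case the 4 bases on each side, from the transcript, 5′ to 3′.
H2afx: caaaGGCCCTTTTAAGGGCCacca
Hist3h2a: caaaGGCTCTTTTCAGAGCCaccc
Hist2h2aa1: aaaaGGCTCTTTTCAGAGCCaccc
Hist1h2ag: caaaGGCTCTTTTCAGAGCCacct
Hist1h4i: taaaGGCCCTTTTTAGGGCCacca
Hist1h4c: aaaaGGCCCTTTTCAGGGCCaccc

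What follows the loop differed among the genes. In 36 genes the annotated transcript with the loop had no AATAAA poly(A) signal in its last 50 bases. The median was 46 bases after the loop, with a range of 3 to 4884. For Hist1h2be and Hist1h2bp among them, another annotated transcript had the signal. In 10 genes the transcript held the loop and, further on, an AATAAA near its end, with a median of 612.5 bases after the loop. This group included Hist3h2a (1643 bases after the loop, signal 34 bases from the end), Hist3h2ba (169 bases, signal 27 from the end) and Hist1h1c (840 bases, signal 26 from the end). In 8 genes with an annotated 3′ untranslated region no loop was found, among them Hist2h2be, Hist1h2bc, Hist1h2af and Hist1h1a, and 13 genes had no such region annotated. The Hist1h2af transcript is 399 bases long, of which 393 are coding, so its annotated end was too short to hold the 16-base loop.

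Read depth set what could be seen of these genes. Library totals lay between 17101971 and 21837088 estimated counts, and the replication-dependent genes together took 0.0193% to 0.0383% of them. Of those 67 genes, 55 had a mean under 50 counts per library and 9 a mean of at least 100. Hist1h2aa and Hist1h2ba were at 0 in all 12 libraries, which allows up to 0.0128 CPM (counts-per-million) over the series (3 counts, counting error only). Tests covered 64 members, of which 56 were replication-dependent. The other 11, all replication-dependent, had at most 65.58 counts over the 12 libraries and were filtered out by counts alone.

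Near-identical copies share reads, and the authors' counting divided such reads by estimate. Of 58 members compared, 18 were at least 99% identical in coding sequence to another member and 8 were identical to one. For the 63 replication-dependent genes with at least 10 counts in some library, the median deposited posterior SD of the count was 5.92% of the count. It exceeded 10% in 19 genes and was under 1% in 14, which included Hist3h2a, Hist3h2ba, Hist2h2be, Hist1h2af and Hist1h4i. For the variants and Slbp it was at most 0.0796%. Exons of 26 members overlap exons of a gene on the opposite strand, mostly small annotated RNAs or antisense transcripts, and those of 7 overlap a gene on the same strand. No source used here states whether counting used the strand, so such reads cannot be told apart.

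The libraries differed in ways that touch the results. Radial glia markers (10 genes, among them Pax6, Sox2 and Vim), which define the labelled tissue, were present in every library at a summed 1366 to 2920 CPM (here and below on library sizes scaled by TMM), with none at 0 in any group. Summed markers of neurons (13 genes) stood at 5646 to 6441 CPM in E13.5 p18mKO2+ and 2421 to 2992 CPM in E13.5 p18mKO2-, and at 7911 to 8781 and 8237 to 11146 CPM in E16.5 p18mKO2+ and p18mKO2-. A ribosomal RNA gene (CT010467.1), whose product has no poly(A) tail, took 2.81% to 6.64% of counts in E13.5 p18mKO2+ against 5.32% to 8.80% in E13.5 p18mKO2-, and 1.79% to 3.97% in E16.5 p18mKO2+ against 6.28% to 13.6% in E16.5 p18mKO2-. The highest of these values belongs to E16.5 p18mKO2- replicate 1, which stood apart from the other libraries of its stage. Replicate 3 of each p18mKO2+ group carried transcripts of both sexes, and the 3 E13.5 p18mKO2- libraries had Xist and next to no Y-linked reads.

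The targeted gene was checked against the labels. Cdkn2c stood at 22.9, 32.6 and 21.6 CPM in E13.5 p18mKO2+ and 27.6, 24.6 and 17.7 CPM in E13.5 p18mKO2-. The E16.5 values were 30.2, 30.95 and 25.8 CPM in p18mKO2+ and 22.5, 31.8 and 15.1 CPM in p18mKO2-. The groups overlapped in CPM at both stages, and neither log2 change was called, at 0.14 ± 0.26 (SE; edgeR adjusted p = 0.798) and 0.32 ± 0.26 (edgeR adjusted p = 1.00). On the deposited TPM scale the groups did not overlap, at 27.7 to 32.6 TPM in p18mKO2+ against 16.1 to 26.5 TPM in p18mKO2- at E13.5, and 32.1 to 43.6 TPM in p18mKO2+ against 13.7 to 28.7 TPM in p18mKO2- at E16.5. On log2(TPM + 1) the median change over all genes tested was also above 0, at 0.14 (E13.5) and 0.23 (E16.5).

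Among the members, levels per transcript length (TPM, as deposited, mean over 12 libraries) ran from 2728 for H3f3a, 1020 for H2afz and 969 for H3f3b down to 0. H3f3a and H3f3b encode the replacement histone H3.3, and H2afz and H2afv encode H2A.Z. H2afv stood at 391 TPM, H1f0 (a linker histone of non-dividing cells) at 367 TPM, H2afy (macroH2A1) at 303 TPM and H2afx (H2A.X, phosphorylated at DNA breaks) at 202 TPM. Slbp stood at 73.3 TPM. The highest replication-dependent level was 211 TPM for Hist3h2ba, followed by 134 TPM for Hist1h2af, whose annotated transcript is only 399 bases long, and 53.1 TPM for Hist3h2a. In counts, Hist3h2a and Hist3h2ba, neighbours on chromosome 11, alone took 108 to 137 of the 222 to 320 summed replication-dependent CPM in E13.5 p18mKO2+ and 86.7 to 96.7 of 302 to 383 in E13.5 p18mKO2-.

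At E13.5, p18mKO2+ tissue had less Slbp, H2afx and H2afy RNA than p18mKO2- tissue, and more reads assigned to Hist2h2aa1. These were the 4 members called (edgeR quasi-likelihood, Benjamini-Hochberg adjusted p under 0.05 over 16798 genes), 3 lower and 1 higher, of 64 tested. Among all genes tested, 10.8% were called, 7.29% higher and 3.49% lower. Of the 56 replication-dependent genes tested, 51 had a log2 change below 0, with a median of -0.91 beside 0.01 over all genes, and none of them was called lower.

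Slbp (GRCm38 chromosome 5, 33634952 to 33652574, minus strand) stood at 56.5, 78.3 and 66.1 CPM in E13.5 p18mKO2+ and 99.5, 116 and 151 CPM in E13.5 p18mKO2-. All p18mKO2+ libraries lay below all p18mKO2- libraries. The log2 change was -0.87 ± 0.17 (SE; edgeR adjusted p = 0.00628), and the call held in 17 of 17 alternatives, with adjusted p up to 0.0422. In bulk tissue, fewer cells that express a gene and less of its RNA per cell cannot be told apart, which holds for every result here. Groups are described here and below as overlapping or not. The share of all genes tested without overlap was not counted in any comparison, so a lack of overlap alone is a description.

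H2afx (chromosome 9, 44334694 to 44336077, plus strand) stood at 124, 170 and 114 CPM in E13.5 p18mKO2+ and 271, 252 and 262 CPM in E13.5 p18mKO2-. The groups were far from overlapping, and the log2 change of -0.94 ± 0.16 (SE; edgeR adjusted p = 0.00271) was called in 17 of 17 alternatives. H2afy stood at 276, 301 and 235 CPM in E13.5 p18mKO2+ and 386, 362 and 369 CPM in E13.5 p18mKO2-, again without overlap. Its log2 change was -0.46 ± 0.12 (SE; edgeR adjusted p = 0.025), but the call was lost in 9 of 17 alternatives (adjusted p 0.000565 to 0.265), among them the fits without E13.5 p18mKO2+ replicate 1 or 3 and without E13.5 p18mKO2- replicate 1 or 2.

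The H2A.Z genes did not pass the test. H2afz stood at 444, 569 and 387 CPM in E13.5 p18mKO2+ and 614, 646 and 791 CPM in E13.5 p18mKO2-, without overlap, at a log2 change of -0.55 ± 0.21 (edgeR adjusted p = 0.112). H2afv had a log2 change of -0.42 ± 0.18 (edgeR adjusted p = 0.164) and overlapping groups. The H3.3 genes H3f3a and H3f3b and the linker gene H1f0 had log2 changes of -0.06 ± 0.21, -0.07 ± 0.15 and -0.31 ± 0.16 (edgeR adjusted p from 0.254 to 0.908), each with overlapping groups.

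**Figure D1:**
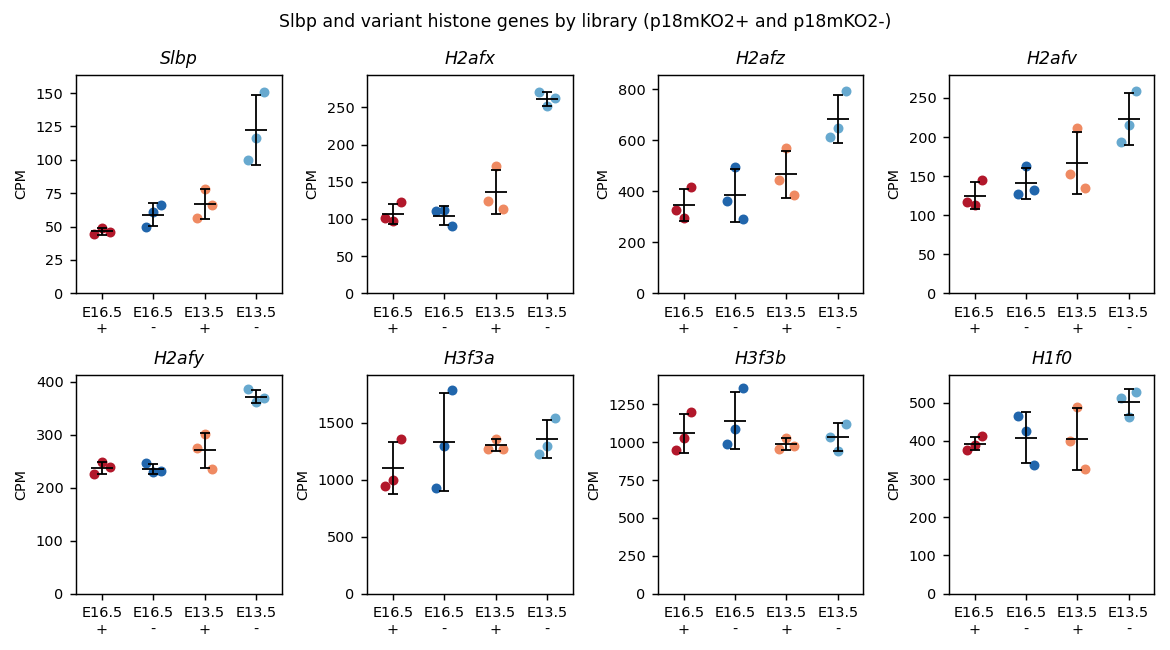
CPM (vertical axis from 0) of Slbp and the 7 variant histone genes in each of the 12 libraries, by stage and p18mKO2 status. Points are libraries, the horizontal mark is the group mean and the bar the SD (n = 3). Slbp, H2afx and H2afy are lower in E13.5 p18mKO2+ than in E13.5 p18mKO2- without overlap, while H3f3a and H3f3b overlap in all groups.

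The subfamilies of replication-dependent genes were summed at E13.5, and no test compared them. Summed CPM was 15.6, 29.6 and 10.4 for H1 in p18mKO2+ and 28.3, 46.0 and 41.5 in p18mKO2-, so the highest p18mKO2+ library passed the lowest p18mKO2- one. Summed H3 stood at 10.4, 14.3 and 5.59 CPM in p18mKO2+ and 18.8, 22.0 and 28.5 CPM in p18mKO2-. Summed H4 stood at 21.5, 31.04 and 13.8 CPM in p18mKO2+ and 35.7, 44.9 and 44.7 CPM in p18mKO2-. H3 and H4 thus separated the groups, at log2 ratios of group means of -1.20 and -0.92, beside -1.06 for H1. Summed H2A (89.3 to 122 CPM in p18mKO2+, 109 to 142 CPM in p18mKO2-) and H2B (98.4 to 124 CPM in p18mKO2+, 110 to 127 CPM in p18mKO2-) overlapped, with log2 ratios of -0.24 and -0.13. Hist3h2a and Hist3h2ba hold a large part of these H2A and H2B sums, and without that pair the ratio over all other replication-dependent genes was -0.84, beside -0.39 with it. By single genes, the median log2 change was -1.25 for H1 (5 of 5 below 0), -0.74 for H2A (9 of 12), -0.55 for H2B (14 of 15), -1.15 for H3 (12 of 12) and -0.96 for H4 (11 of 12). In deposited TPM the H2A sum had a log2 ratio of -0.69.

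Single genes show what lies behind the sums. Of the H4 genes with the highest TPM, Hist1h4i (chromosome 13, 22040636 to 22041362) stood at 11.1, 11.1 and 5.55 CPM in E13.5 p18mKO2+ and 16.51, 17.96 and 16.96 CPM in E13.5 p18mKO2-. Its groups did not overlap, and its log2 change of -0.89 ± 0.29 missed the threshold (edgeR adjusted p = 0.0627), which it passed in 4 of 17 alternatives. Hist1h4n, Hist1h4h and Hist1h4k averaged 1.70, 1.63 and 0.768 CPM in p18mKO2+ against 3.57, 3.002 and 1.88 CPM in p18mKO2-, and none was called. The H3 genes Hist2h3b, Hist1h3c and Hist1h3b averaged 0.907, 1.18 and 1.40 CPM in p18mKO2+ against 2.57, 3.21 and 2.98 CPM in p18mKO2-, each without overlap of the groups and none called. Hist1h3h averaged 0.440 CPM in p18mKO2+ and 0.843 CPM in p18mKO2-.

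The linker histone genes Hist1h1a, Hist1h1b and Hist1h1e had log2 changes of -1.51 ± 0.68, -1.76 ± 0.62 and -1.25 ± 0.60 (edgeR adjusted p from 0.0865 to 0.212). Hist1h1c, the H1 gene with the most counts, had 6.88, 9.87 and 5.08 CPM in p18mKO2+ and 10.02, 16.3 and 9.77 CPM in p18mKO2-, which overlapped (log2 change -0.72 ± 0.35, edgeR adjusted p = 0.209). For H2A, Hist1h2af stood at 16.8, 19.0 and 18.4 CPM in p18mKO2+ and 39.8, 32.1 and 51.9 CPM in p18mKO2-. Those groups did not overlap, yet at a log2 change of -1.19 ± 0.56 the gene was not called (edgeR adjusted p = 0.201). Hist1h2ap averaged 7.38 CPM in p18mKO2+ and 19.1 CPM in p18mKO2-, with overlapping groups. The H2B genes Hist2h2be, Hist1h2bc and Hist2h2bb had log2 changes of -0.20 ± 0.17, -0.21 ± 0.22 and -1.53 ± 0.80, none called.

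The Hist3 pair on chromosome 11 lay on the other side of 0. Hist3h2a (58954685 to 58956830, plus strand), an H2A gene whose long transcript ends at a poly(A) signal, stood at 53.2, 75.0 and 61.8 CPM in E13.5 p18mKO2+ and 45.8, 37.5 and 41.9 CPM in E13.5 p18mKO2-. The groups did not overlap, and the log2 change of 0.60 ± 0.19 missed the threshold (edgeR adjusted p = 0.0586), which it passed in 5 of 17 alternatives. Its first 708 of 2146 exon bases also lie in an exon of Trim17 on the same strand, whose own count was 1.42 to 3.12 CPM in E13.5 p18mKO2+ and 0.868 to 1.25 CPM in E13.5 p18mKO2-. Hist3h2ba stood at 55.2, 62.2 and 55.5 CPM in p18mKO2+ and 47.8, 49.2 and 54.8 CPM in p18mKO2-, a log2 change of 0.19 ± 0.14 (edgeR adjusted p = 0.429).

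**Figure D2:**
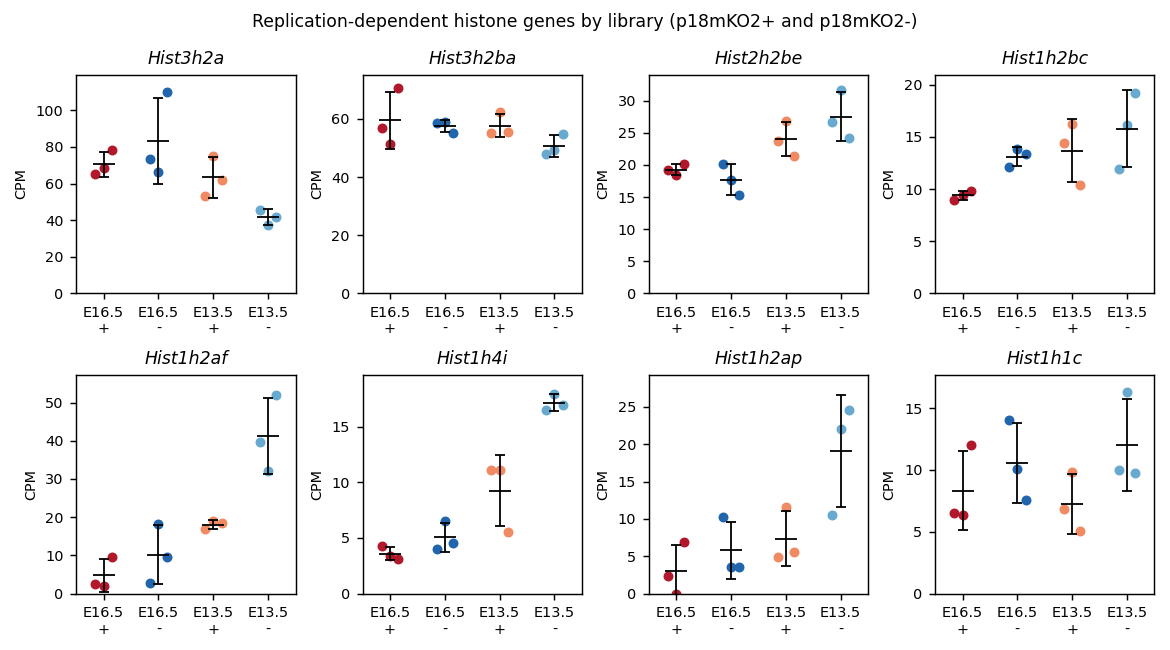
CPM (vertical axis from 0) of 8 replication-dependent genes with many counts, by library, stage and p18mKO2 status, with group mean and SD (n = 3). Hist1h2af and Hist1h4i are highest in E13.5 p18mKO2-, Hist3h2a is lowest there, and Hist3h2ba lies between 47.8 and 70.5 CPM in all 12 libraries.

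The count of Hist2h2aa1 depends on how reads were divided between 2 copies, and the part of that division in its call was not tested. Hist2h2aa1 and Hist2h2aa2 are neighbours on chromosome 3 with identical coding sequence (393 bases) and the same stem-loop. Hist2h2aa1 was given 65.3, 62.8 and 5.45 expected counts in E13.5 p18mKO2+ and 0, 5.99 and 0 in E13.5 p18mKO2-. Its log2 change was 4.17 ± 1.203 (SE; edgeR adjusted p = 0.0405), with overlapping groups, and the median posterior SD of its count was 54.3% of the count. Hist2h2aa2 was given 53.3, 47.9 and 82.9 expected counts in p18mKO2+ and 70.2, 39.2 and 82.4 in p18mKO2-, with a log2 change of -0.34 ± 0.52 that was not called (edgeR adjusted p = 0.749). The pair summed to 5.72, 5.07 and 3.76 CPM in p18mKO2+ and 3.63, 2.44 and 4.80 CPM in p18mKO2-, so the sums overlapped. The Hist2h2aa1 call was lost in 7 of 15 alternatives, including the fits without E13.5 p18mKO2+ replicate 1 or 2 and without E13.5 p18mKO2- replicate 1 or 3.

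**Figure D3:**
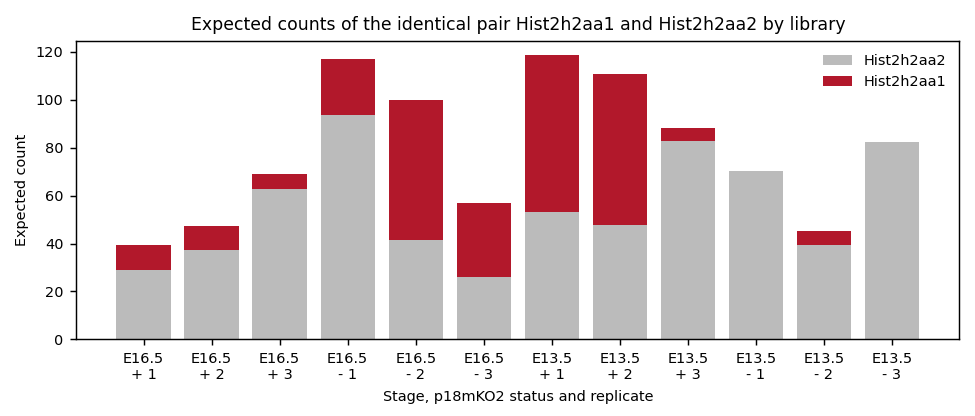
Expected counts (vertical axis from 0) assigned to Hist2h2aa2 (lower bar part) and Hist2h2aa1 (upper bar part) in each library, by stage, p18mKO2 status and replicate. The split between the copies changes more than their total: Hist2h2aa1 is at 0 in 2 of the 3 E13.5 p18mKO2- libraries and above 60 in 2 of the 3 E13.5 p18mKO2+ libraries.

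Other genes of histone supply and S phase were read from gene lists. Of 22 histone chaperones and acetylating enzymes, 7 were called lower and none higher in E13.5 p18mKO2+ (median log2 change -0.42). The 4 with the smallest p were Chaf1b and Chaf1a, subunits of the CAF-1 complex that deposits new H3 and H4 (log2 changes -0.996 and -0.85, edgeR adjusted p = 0.00344 and 0.0172), Nasp, which binds free histones (-0.78, edgeR adjusted p = 0.00527), and Npm1 (-0.77, edgeR adjusted p = 0.0167). Of 23 genes of histone pre-mRNA processing and decay, none was called lower and 2 higher, near the shares over all genes tested (3.49% and 7.29%). Of the 23, 15 had a log2 change below 0. The 2 called were Lsm11, a part of the U7 particle that cleaves histone transcripts (0.67, edgeR adjusted p = 0.0422), and Ctif (0.70, edgeR adjusted p = 0.0472). Slbp, which acts in the same processing step, fell. Of 24 genes of S phase, 20 fell (median -0.85), with Ccne1 at -1.36, Rpa2 at -0.92 and Pcna at -0.83 (edgeR adjusted p from 0.00527 to 0.0074). Among other variant histone genes, the centromeric histone gene Cenpa fell by 0.77 on the log2 scale (edgeR adjusted p = 0.0258), and the other 3 tested were not called.

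Cell type markers moved in the same comparison. Of 13 neuron markers, 9 were called higher in E13.5 p18mKO2+ and none lower, and of 10 radial glia markers 5 were called lower and none higher. Calls in the other marker lists were 1 of 5 lower for intermediate progenitors, 1 of 7 higher for ventral telencephalon, 2 of 8 lower for erythroid cells, 2 of 6 higher for endothelial cells and pericytes, and 0 for microglia, meninges and choroid plexus. The share of these shifts in the histone and Slbp differences was not tested. The ribosomal RNA share was lower in p18mKO2+ as well. With that RNA as a covariate, a fit added after seeing the data, the called members were Slbp and H2afx, and the median over the 56 replication-dependent genes was -0.23 with 37 below 0. Without the 2 libraries of both sexes that median was -0.69, and Slbp, H2afx and Hist2h2aa1 were called. With a Y-linked covariate, Slbp and H2afx were called. Leaving out 1 library at a time gave medians of -1.43 (without E13.5 p18mKO2+ replicate 2) to -0.69 (without replicate 3 of that group).

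At E16.5 no member was called between p18mKO2+ and p18mKO2-, and 0.0% of all genes were (edgeR). At an unadjusted p under 0.05 there were 21 members of 64, all of them replication-dependent and lower in p18mKO2+, and 426 of 16798 genes. DESeq2 called 1 member, Hist1h2bg, among 8 genes higher and 8 lower, and limma-voom called 0 members and 2 genes. Of the 56 replication-dependent genes tested, 52 had a log2 change below 0, with a median of -1.47 beside -0.01 over all genes.

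The size of the replication-dependent differences at E16.5 changed with 1 library. Summed CPM over all 67 genes was 191, 179 and 245 in p18mKO2+ and 339, 251 and 256 in p18mKO2-, where the 339 belongs to replicate 1, the library with the most ribosomal RNA. Without that library the median over 57 replication-dependent genes was -0.60, with 40 below 0 and none called. With the ribosomal RNA covariate the median was 0.52 and 19 of 56 were below 0. That RNA did not overlap between the groups at E16.5 (1.79% to 3.97% in p18mKO2+, 6.28% to 13.6% in p18mKO2-). The fit therefore cannot separate it from p18 status. Summed H4 stood at 7.70, 6.84 and 9.90 CPM in p18mKO2+ and 32.8, 13.8 and 11.5 CPM in p18mKO2-. Summed H3 stood at 5.19, 3.97 and 6.96 CPM in p18mKO2+ and 26.95, 10.1 and 5.79 CPM in p18mKO2-. H4 sums did not overlap between the groups and H3 sums did.

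Slbp stood at 44.4, 49.1 and 45.6 CPM in E16.5 p18mKO2+ and 49.98, 60.6 and 66.4 CPM in E16.5 p18mKO2-, without overlap, at a log2 change of -0.35 ± 0.17 (edgeR adjusted p = 1.00). H2afx (101, 97.1 and 122 CPM against 111, 112 and 90.3 CPM) and H2afy (226, 248 and 239 CPM against 246, 230 and 231 CPM) overlapped between p18mKO2+ and p18mKO2-, at log2 changes of 0.03 ± 0.16 and 0.01 ± 0.12. The other 5 variant genes had log2 changes between -0.28 and -0.06. Hist3h2a stood at 65.0, 68.3 and 78.3 CPM in p18mKO2+ and 73.6, 66.1 and 110 CPM in p18mKO2-, and Hist3h2ba at 56.9, 51.4 and 70.5 CPM in p18mKO2+ against 58.45, 59.1 and 55.2 CPM in p18mKO2-, both overlapping.

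Among the genes named by TPM, Hist1h1e (1.11, 1.19 and 3.32 CPM in p18mKO2+, 12.95, 5.34 and 3.36 CPM in p18mKO2-), Hist1h3h, Hist1h4n, Hist1h4h and Hist1h2bc did not overlap between the groups, with log2 changes of -1.94 ± 0.62, -3.61 ± 1.07, -2.70 ± 0.95, -1.86 ± 0.77 and -0.48 ± 0.22. None of them was called, and the share of all genes without such overlap was not counted. The median posterior SD of the Hist1h3h count was 27.7% of the count. Hist1h3i, which was picked out after its values were seen, was at 0 in all 3 p18mKO2+ libraries and at 20.8, 16.9 and 10.7 expected counts in p18mKO2-. With 3 counts over the group in place of 0 (counting error only), its mean was 18.4-fold lower. The median posterior SD of its count was 16.6% of the count. With Hist1h3i at that fold the median over the replication-dependent genes was unchanged at -1.47. No member of the lists of chaperones, processing factors or S phase genes was called at this stage, and their median log2 changes were -0.05, 0.02 and -0.03. Of the cell type markers none was called either, in any list, though some lists lay to one side of 0. All 7 ventral telencephalon markers were above 0 (median 1.23), with a summed 337 to 525 CPM in p18mKO2+ and 148 to 237 CPM in p18mKO2-, which did not overlap. All 4 choroid plexus markers were above 0 (median 1.32), with 311 to 1439 CPM in p18mKO2+ and 178 to 460 CPM in p18mKO2-, and all 5 meninges markers were below 0 (median -0.27). The part of these tissues in the histone values was not tested.

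**Figure D4:**
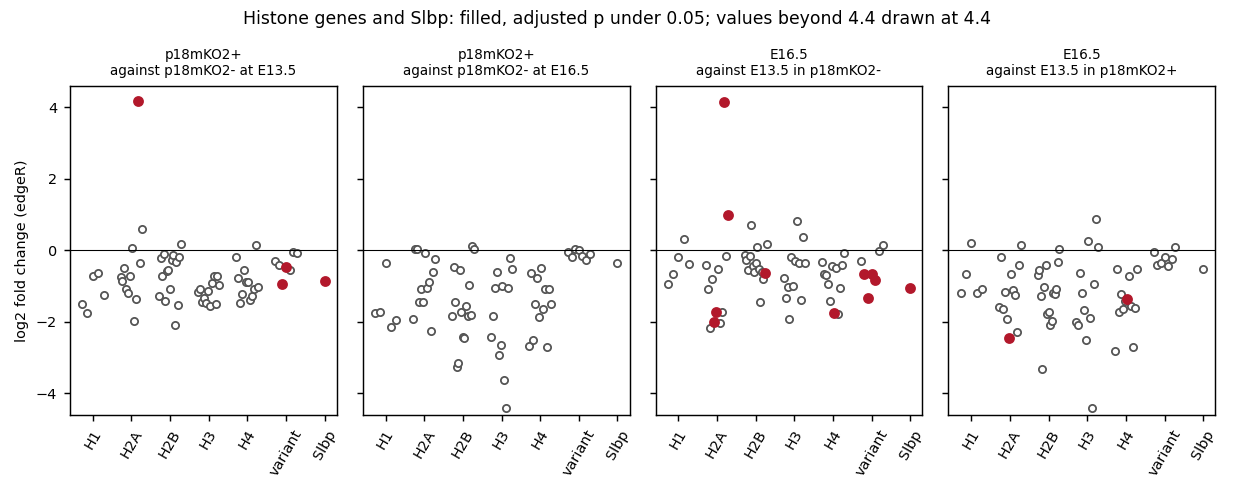
Log2 fold changes (edgeR, vertical axis) of the 64 members tested in 4 comparisons, grouped by histone class. Filled points have an adjusted p under 0.05, the line marks 0 and values beyond 4.4 are drawn at 4.4 (Hist1h3i, at 0 counts in E16.5 p18mKO2+). Most replication-dependent points lie below 0 in the 4 comparisons, while few are filled.

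The effect of p18 differed between the stages for 2 members, H2afx and Hist2h2aa1 (difference taken as E16.5 minus E13.5). Of all genes tested, 2.7% were called in this difference, 0.298% higher and 2.4% lower. For H2afx the log2 changes were 0.03 at E16.5 and -0.94 at E13.5, a difference of 0.97 ± 0.23 (SE; edgeR adjusted p = 0.0378). That call was lost in 13 of 22 alternatives (adjusted p 0.00135 to 0.190), including 10 of the 12 fits that leave out a library. The exceptions were the fits without E13.5 p18mKO2+ replicate 2 and without E16.5 p18mKO2- replicate 1. For Hist2h2aa1, subject to the division of reads described above, the log2 changes were -2.26 and 4.17, a difference of -6.43 ± 1.60 (SE; edgeR adjusted p = 0.0486), lost in 16 of 20 alternatives, among them the fits without each library in turn except E13.5 p18mKO2+ replicate 3 and E13.5 p18mKO2- replicate 2. For Slbp, called at E13.5 alone, the difference of 0.52 ± 0.24 was not called (edgeR adjusted p = 0.309), nor was that of H2afy, 0.47 ± 0.17 (edgeR adjusted p = 0.168). For Hist3h2a the difference was -0.84 ± 0.27 (edgeR adjusted p = 0.116).

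Between stages in p18mKO2- tissue, 11 members were called of 64 tested, 9 lower and 2 higher at E16.5. Of all genes tested 29.8% were called, 16.4% higher and 13.4% lower. Slbp stood at 49.98, 60.6 and 66.4 CPM at E16.5 and 99.5, 116 and 151 CPM at E13.5, a log2 change of -1.05 ± 0.17 (SE; edgeR adjusted p = 0.000468). H2afx fell by 1.32 on the log2 scale, H2afz by 0.83, H2afy by 0.66 and H2afv by 0.66 (edgeR adjusted p from 4.64e-05 to 0.0137), each without overlap. H3f3a, H3f3b and H1f0 were not called, at -0.02, 0.15 and -0.29 (edgeR adjusted p from 0.197 to 0.956). The H2afv call was lost without E13.5 p18mKO2- replicate 3 and without E16.5 p18mKO2- replicate 1.

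Of the replication-dependent genes, 4 fell and 2 rose at E16.5 in p18mKO2-. Hist1h4i stood at 4.05, 6.56 and 4.52 CPM at E16.5 and 16.51, 17.96 and 16.96 CPM at E13.5, a log2 change of -1.76 ± 0.30 (SE; edgeR adjusted p = 0.000549). Hist1h2af, without loop in its annotated end, stood at 2.76, 18.3 and 9.56 CPM at E16.5 and 39.8, 32.1 and 51.9 CPM at E13.5, a log2 change of -2.01 ± 0.58 (edgeR adjusted p = 0.017). Hist1h2ag had 1.54, 1.73 and 0.753 CPM at E16.5 and 3.69, 4.02 and 5.62 CPM at E13.5 (log2 change -1.72 ± 0.53, edgeR adjusted p = 0.024). Hist2h2be, an H2B gene whose annotated transcript is 2620 bases long and has an AATAAA near its end, had 20.2, 17.6 and 15.4 CPM at E16.5 and 26.7, 31.6 and 24.2 CPM at E13.5 (log2 change -0.63 ± 0.17, edgeR adjusted p = 0.011). None of these 4 overlapped between stages.

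Hist3h2a rose: it stood at 73.6, 66.1 and 110 CPM at E16.5 and 45.8, 37.5 and 41.9 CPM at E13.5, a log2 change of 1.00 ± 0.19 (SE; edgeR adjusted p = 0.0014), called in 17 of 17 alternatives. Trim17, which shares its first exon bases, stood at 1.68 to 4.58 CPM at E16.5 and 0.868 to 1.25 CPM at E13.5. Hist3h2ba had 58.45, 59.1 and 55.2 CPM at E16.5 and 47.8, 49.2 and 54.8 CPM at E13.5, without overlap and not called (log2 change 0.19 ± 0.14, edgeR adjusted p = 0.342). Hist2h2aa1 had the same difficulty as above, with 23.4, 58.3 and 31.2 expected counts at E16.5 and 0, 5.99 and 0 at E13.5 (log2 change 4.16 ± 1.204, edgeR adjusted p = 0.0181). Single libraries ended some calls: E13.5 p18mKO2- replicate 1 that of Hist2h2aa1, replicate 2 that of Hist2h2be and replicate 3 those of Hist1h2af, Hist1h2ag and Hist2h2aa1, and E16.5 p18mKO2- replicate 1 or 3 that of Hist1h2ag and replicate 2 that of Hist2h2aa1.

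The 56 replication-dependent genes tested had a median log2 change of -0.54 between stages in p18mKO2-, with 48 below 0, beside -0.02 over all genes. Without E16.5 p18mKO2- replicate 1 that median was -1.43, with 52 of 57 below 0 and 6 called lower. Without replicate 2 of that group it was -0.32, with 43 of 60 below 0 and 4 called lower, and without replicate 3 it was -0.21, with 41 of 60 below 0 and 3 called lower. With the ribosomal RNA covariate it was -1.07, with 10 of 56 called lower. Of the surrounding genes, 14 of 22 chaperones and acetylating enzymes fell, led by Hat1, which acetylates new H4 (log2 change -1.57, edgeR adjusted p = 1.93e-05), with Chaf1b at -1.29, Nasp at -0.94 and Asf1b at -1.44. All 24 S phase genes fell (median -1.29). Of 23 processing and decay genes, 2 were called lower (Mif4gd, a partner of Slbp in translation, at -1.07, and Cpsf1 at -0.54). Another 2 were called higher (Ctif at 0.86 and Lsm11 at 0.61). Over all genes tested, 13.4% were called lower and 16.4% higher. Among other variant histone genes Cenpa (-1.54) and H1fx (-0.87) fell. Cell type markers moved in the same comparison: all 13 neuron markers rose, and of 10 radial glia markers 8 fell and 1 rose. Calls in the other lists were 3 lower and 1 higher for intermediate progenitors, 3 lower and 1 higher for erythroid cells, 3 of 5 lower for meninges (median -1.36), 2 of 7 lower for ventral telencephalon, 2 of 6 higher for endothelial cells and pericytes, 1 of 5 higher for microglia and 0 for choroid plexus. Their part in the histone differences was not tested.

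Between stages in p18mKO2+ tissue, 2 members were called, both lower at E16.5, where 1.64% of all genes were called, 1.08% higher and 0.554% lower. Hist1h4i stood at 4.28, 3.42 and 3.09 CPM at E16.5 and 11.1, 11.1 and 5.55 CPM at E13.5, a log2 change of -1.36 ± 0.30 (SE; edgeR adjusted p = 0.0398). Hist1h2ag had 0.705, 0.397 and 0.369 CPM at E16.5 and 3.30, 3.61 and 1.195 CPM at E13.5, a log2 change of -2.45 ± 0.56 (SE; edgeR adjusted p = 0.0441). Both were without overlap, and the calls were lost in 10 of 17 alternatives for Hist1h4i and 10 of 16 for Hist1h2ag, among them, for both, every fit without a library except that without E13.5 p18mKO2+ replicate 3. Slbp stood at 44.4, 49.1 and 45.6 CPM at E16.5 and 56.5, 78.3 and 66.1 CPM at E13.5, without overlap and not called (log2 change -0.53 ± 0.17, edgeR adjusted p = 0.148). H2afx had 101, 97.1 and 122 CPM at E16.5 and 124, 170 and 114 CPM at E13.5, which overlapped (log2 change -0.35 ± 0.16). The replication-dependent median was -1.22, with 50 of 56 below 0, beside -0.03 over all genes. With the ribosomal RNA covariate it was -0.53, with 37 of 56 below 0. Without E13.5 p18mKO2+ replicate 2 it was -0.80, with 49 of 60 below 0. Of the chaperone list 1 gene fell, and no S phase gene was called. Among the markers, 2 of 13 for neurons rose (12 above 0), 1 of 10 for radial glia and 2 of 8 for erythroid cells fell, and all 5 for meninges were below 0 with none called (median -1.04). Their part in the histone values was not tested.

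The comparisons share groups: E13.5 p18mKO2- is the base of both the p18 comparison at that stage and the stage comparison in p18mKO2-, so the values for Slbp and H2afx in these 2 comparisons are not independent of each other.

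The replication-dependent genes were also grouped by their annotated 3′ end, without a test between the classes. The median log2 change of single genes was below 0 in each of the 4 classes at both stages, between -1.81 and -1.01 at E16.5 and between -1.28 and -0.71 at E13.5. The 36 genes with a loop and no poly(A) signal in the same transcript summed to 54.6, 86.6 and 38.0 CPM in E13.5 p18mKO2+ and 90.0, 120 and 137 CPM in E13.5 p18mKO2-. At E16.5 they summed to 24.2, 19.0 and 33.1 CPM in p18mKO2+ and 115, 50.8 and 34.5 CPM in p18mKO2-, where the first of the 3 is again replicate 1. The groups did not overlap at either stage, although the highest p18mKO2+ library came close to the lowest p18mKO2- library at both. The 23 of these genes with no more than 100 bases after the loop gave log2 ratios of -1.35 (E16.5) and -0.91 (E13.5), beside -1.39 and -0.95 for all 36. Without E16.5 p18mKO2- replicate 1 the E16.5 ratio for all 36 was -0.74.

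The 10 genes with both a loop and a poly(A) signal summed to 121, 155 and 126 CPM in E13.5 p18mKO2+ and 113, 109 and 117 CPM in E13.5 p18mKO2-, with p18mKO2+ above p18mKO2- in every library (log2 ratio 0.24). At E16.5 they summed to 131, 128 and 165 CPM in p18mKO2+ and 159, 140 and 176 CPM in p18mKO2-, which overlapped. Most of this sum is Hist3h2a and Hist3h2ba, and the median of single log2 changes at E13.5 in this class was -0.71 over 9 genes tested, with 6 below 0. The sum and the median thus differ in sign. The median for the genes with a loop alone was -0.94, with 31 of 32 below 0.

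The class without a loop match holds 8 genes, among them Hist1h2af, whose annotated end is too short to hold a loop. These 8 genes summed to 60.2, 69.1 and 53.6 CPM in E13.5 p18mKO2+ and 86.0, 95.7 and 109 CPM in E13.5 p18mKO2-, without overlap. Hist1h2af, whose own groups did not overlap at E13.5, held a large part of these sums. Sums without it were not taken, so the separation cannot be read as a trait of the class. At E16.5 the 8 genes summed to 32.97, 31.001 and 43.1 CPM in p18mKO2+ and 48.3, 51.7 and 41.7 CPM in p18mKO2-. In this class E16.5 p18mKO2- replicate 1 lay between the other libraries of its group, but Hist1h2af was lowest in that replicate. The 13 genes with no annotated 3′ untranslated region summed to 17.2, 8.80 and 3.77 CPM in E16.5 p18mKO2- replicates 1 to 3, highest in replicate 1. In the class with a loop alone, the same library was at more than the sum of the other 2 (115 against 50.8 and 34.5 CPM), and its ribosomal RNA share was 13.6% against 8.40% and 6.28%. The part of RNA selection in these differences was not tested.

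**Figure D5:**
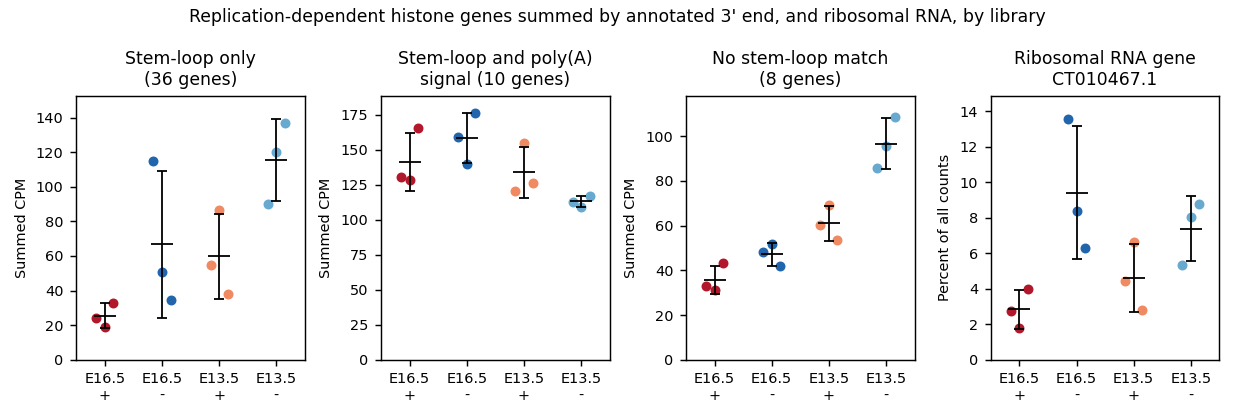
Summed CPM (vertical axis from 0) of replication-dependent genes by annotated 3′ end in each library, and the percent of counts in the ribosomal RNA gene CT010467.1, by stage and p18mKO2 status, with group mean and SD (n = 3). The stem-loop-only sum and the ribosomal RNA share are both highest of their stage in E16.5 p18mKO2- replicate 1 (115 CPM and 13.6%), while the sum over genes that also hold a poly(A) signal lies between 109 and 176 CPM in all 12 libraries.

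Promoters were read from RefSeq (GRCm38.p6) as the 250 bases before the annotated start, and 68 of the 75 members matched. Motifs were read on both strands. The letters CCAAT, which the factor NF-Y binds, were in 50 of 61 replication-dependent promoters (82%), beside 34.5% of all 27018 promoters of that length. They were in all 6 H1, 17 H2A and 16 H2B promoters, in 8 of 10 H3 promoters and in 3 of 12 H4 promoters. TATAAA was in 47.5% of replication-dependent promoters and 13% of all, and the octamer ATTTGCAT in 21.3% and 1.61%. All octamer matches were in H2A (7 of 17) and H2B (6 of 16) genes among the replication-dependent classes. Some H2A and H2B genes lie head to head with annotated starts under 250 bases apart, so their promoters share bases. A match there counts for both genes, and the counts over promoters are not independent. TTTNGCGC, an E2F-like string, was in 10 of 61 (16.4%) beside 1.15% of all. None of these motifs contains another, and a match is a description of the sequence, not a site shown to be used.

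The 2 promoters below belong to Slbp, called lower at E13.5 in p18mKO2+, and to Hist3h2a, the gene that ran against most of its class. Capitals mark CCAAT or its reverse complement ATTGG, with 3 matches for Slbp (chr5:33652575-33652824, minus strand) and 2 for Hist3h2a (chr11:58954435-58954684, plus strand), each 5′ to 3′ on the gene's strand.
Slbp: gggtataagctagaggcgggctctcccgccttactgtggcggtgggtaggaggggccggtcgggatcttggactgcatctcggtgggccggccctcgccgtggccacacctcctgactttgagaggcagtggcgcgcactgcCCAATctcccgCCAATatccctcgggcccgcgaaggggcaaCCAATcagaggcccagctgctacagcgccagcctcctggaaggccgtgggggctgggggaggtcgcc
Hist3h2a: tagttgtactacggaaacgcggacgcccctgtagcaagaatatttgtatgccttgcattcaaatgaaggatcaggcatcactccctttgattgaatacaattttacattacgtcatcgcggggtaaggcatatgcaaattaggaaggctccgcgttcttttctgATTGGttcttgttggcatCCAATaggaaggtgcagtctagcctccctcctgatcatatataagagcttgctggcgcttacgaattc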

How the data were processed

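RNA of the ventricular zone was profiled in 12 libraries, 3 in each of 4 groups. Reads were processed with RSEM 1.2.31, STAR 2.7.2b and cutadapt 3.4 on GRCm38 (mm10), per the submitters' processing notes. The sources used here give neither the annotation release nor the strand setting. For every gene the deposited files hold, per the file headers, an expected count, a TPM value, a length and the posterior mean and SD of the count, all made by the authors. RSEM estimates expected counts by dividing multi-mapped reads between genes.

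Expected counts were rounded, and all 16798 genes kept by filterByExpr were fitted with edgeR 4.0.16 (R 4.3.3; TMM, quasi-likelihood, 1 mean per group, 8 residual degrees of freedom, common biological coefficient of variation 0.311). The threshold for a call was 0.05 on Benjamini-Hochberg adjusted p. The SE is the absolute log2 change over the square root of F. CPM uses TMM-scaled library sizes. Fits were tested on simulated counts. Members, gene lists and marker lists were chosen with earlier results of these data known. Named genes were Slbp, the 7 variants, the 4 members of each subfamily with the highest mean TPM, further called members, and up to 4 genes per list with the smallest p. One gene of the S phase list is not reported by name here. Stem-loops and lengths came from GENCODE vM21 transcripts; the deposited length equalled vM21 in 64 of 64 members with 1 transcript.

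Other settings tried were DESeq2 1.42.0, limma 3.58.1 (voom, and trend on log2(TPM + 1)), RLE factors, no filter or a mean-CPM filter of 5, a replicate block, fits of only the groups compared, and leaving out each library. Chosen after seeing the data were covariates for ribosomal RNA and Y-linked expression and a fit without the 2 libraries of both sexes. Figures used matplotlib 3.10.9.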

Additional observations from a re-analysis of the deposited data

Results flagged for a closer look

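The effect of p18 on H2afx differed between stages by 0.97 on the log2 scale (E16.5 minus E13.5), with p18mKO2+ and p18mKO2- overlapping at E16.5 and apart at E13.5, by the interaction test of the edgeR fit (adjusted p = 0.0378). That call was lost in 13 of 22 alternatives. For Hist2h2aa1 the same difference was -6.43 (edgeR adjusted p = 0.0486), lost in 16 of 20 alternatives. Its count had a median posterior SD of 54.3% of the count, and the sum of Hist2h2aa1 and its identical copy Hist2h2aa2 gave log2 ratios of -1.06 at E16.5 and 0.42 at E13.5.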

How the results depend on the processing

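Slbp and H2afx at E13.5 were called in 17 of 17 alternatives. Of members called at E13.5 (4 as reported), DESeq2 gave 8, no filter 7, and the Y-linked and ribosomal RNA covariates 2 each, with 2 to 4 when a library was left out. At E16.5 (0 as reported) DESeq2 gave 1 and no filter 3. For the difference between stages (2 as reported), DESeq2 called H2afx, H2afy and Hist3h2a, and no filter gave 4. RLE, voom, a mean CPM of at least 5 and the ribosomal RNA covariate gave 1. Log2 TPM, the Y-linked covariate and the fit without both-sex libraries gave 0, with 0 to 1 when a library was left out. For stages in p18mKO2- (11 as reported) the ribosomal RNA covariate gave 17, with 7 to 12 when a library was left out. For stages in p18mKO2+ (2 as reported), DESeq2 and no filter gave 5, log2 TPM, a mean CPM of at least 5 and the fit without both-sex libraries gave 1, and the Y-linked and ribosomal RNA covariates, voom and the groups compared alone gave 0, with 0 to 2 when a library was left out. The causes were not tested.

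Log2 ratios of summed levels moved with deposited TPM in place of CPM for H2A, to -0.69 in p18mKO2+ against p18mKO2- at E13.5, -1.22 between stages in p18mKO2- and -1.07 in p18mKO2+, and for H2B at E13.5 to 0.0187. Leaving out a library gave, for p18mKO2+ against p18mKO2- at E16.5, -1.79 to -0.56 for H3 and -1.52 to -0.63 for H4, and between stages in p18mKO2- -1.54 to -0.32 for H3 and -1.72 to -0.84 for H4. The ends nearest 0 at E16.5, and the lowest values between stages, came without E16.5 p18mKO2- replicate 1. On log2 TPM the median of all genes was 0.23 for the p18 comparison at E16.5 and 0.14 at E13.5, against which the medians of the replication-dependent genes were -0.66 and -0.71.

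Whether replicate numbers pair samples is not stated in the labels. Same-numbered libraries correlated at -0.07 to 0.20 in their deviations from group means, and differently numbered ones at -0.15 to 0.10. With the replicate block, members called were 0 and 6 for p18 at E16.5 and E13.5, 2 for their difference, and 11 and 2 for stages in p18mKO2- and p18mKO2+. Most replication-dependent genes had under 50 counts per library, which limits what single genes can show.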
